A study of Homo sapiens with 18 samples.

Results

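The genes described here are 10 transcription factors of blood stem and progenitor cells, HOXA5, HOXA7, HOXA9, HOXA10, MEIS1, PBX3, MECOM, HLF, ERG and FLI1. They were chosen by symbol, and all 10 were found among the 35168 gene identifiers of the series. RNA was sequenced from H1, a line of human embryonic stem cells (hESCs), as unedited wild type cells (WT) and as cells edited to a frameshift in USB1 (USB1 mutant), a gene for an exonuclease that trims the 3′ ends of U6 snRNA. The edit was made with CRISPR/Cas9 and colonies were picked by hand, and the labels do not say how many mutant clones were sequenced. Cells were taken at day 0 (D0, undifferentiated), day 16 (D16, which the study describes as CD34+/CD45+ progenitors) and day 30 (D30, described as mature blood cells) of a hematopoietic differentiation. Each of the 6 groups (WT D0, WT D16, WT D30, USB1 mutant D0, USB1 mutant D16 and USB1 mutant D30) held 3 libraries, so that 18 were compared. All groups derive from H1, and the cells come from a culture and not from an animal or donor.

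HOXA genes encode homeodomain proteins that are active in stem and progenitor cells of blood and are shut down as cells mature. MEIS1 and PBX3 encode TALE homeodomain proteins that bind DNA together with HOX proteins. MECOM, a zinc finger factor also known as EVI1, and HLF, a PAR bZIP factor, mark long-lived stem cells, whereas ERG and FLI1 are ETS factors of stem cells, endothelium and the megakaryocyte lineage.

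The 4 HOXA genes lie in the HOXA cluster on the minus strand of chromosome 7 (GRCh38, GENCODE 44). HOXA5 (ENSG00000106004) spans chr7:27141052-27143681 and HOXA7 (ENSG00000122592) spans chr7:27153716-27157936. HOXA9 (ENSG00000078399, chr7:27162438-27175180) and HOXA10 (ENSG00000253293, chr7:27170605-27180261) overlap on the same strand, so that reads of shared exons are divided by the quantification. The annotated readthrough of both genes (ENSG00000257184) held 1 count over all 18 libraries. MEIS1 (ENSG00000143995) is at chr2:66433452-66573869, PBX3 (ENSG00000167081) at chr9:125747345-125967377, FLI1 (ENSG00000151702) at chr11:128686535-128813267 and HLF (ENSG00000108924) at chr17:55264960-55325187, all on the plus strand. MECOM (ENSG00000085276, chr3:169083499-169663775) and ERG (ENSG00000157554, chr21:38380027-38661780) are on the minus strand.

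RefSeq start sites (GRCh38.p14) were at hand for 8 of the 10 genes, with 15 starts in all, and none for HOXA5 and FLI1. The 250 bases before a start are shown for some starts of MEIS1, MECOM and ERG, whose RNA was highest in D16 mutant cells, chosen as examples of windows that hold a match to a searched motif, and for HOXA9, the HOXA gene with the most counts. Sequences run 5′ to 3′ along the gene, and capitals mark a match to a motif on either strand. The motif of ETS factors was CCGGAAG. That of GATA factors was AGATAA. For RUNX factors it was TGTGGT, and for HOX proteins with PBX it was TGATNNAT.
MEIS1 (chr2:66434875-66435124, plus strand): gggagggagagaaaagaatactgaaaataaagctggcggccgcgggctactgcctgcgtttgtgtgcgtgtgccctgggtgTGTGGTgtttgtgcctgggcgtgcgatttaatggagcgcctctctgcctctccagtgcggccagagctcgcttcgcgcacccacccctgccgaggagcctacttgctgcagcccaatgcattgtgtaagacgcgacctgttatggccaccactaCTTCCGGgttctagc
MECOM, start 1 (chr3:169663713-169663962, minus strand): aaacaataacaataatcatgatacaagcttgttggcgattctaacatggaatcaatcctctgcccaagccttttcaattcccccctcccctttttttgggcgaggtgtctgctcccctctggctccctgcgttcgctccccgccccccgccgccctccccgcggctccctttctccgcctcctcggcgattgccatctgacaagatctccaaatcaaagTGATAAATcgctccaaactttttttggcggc
MECOM, start 3 (chr3:169146540-169146789, minus strand): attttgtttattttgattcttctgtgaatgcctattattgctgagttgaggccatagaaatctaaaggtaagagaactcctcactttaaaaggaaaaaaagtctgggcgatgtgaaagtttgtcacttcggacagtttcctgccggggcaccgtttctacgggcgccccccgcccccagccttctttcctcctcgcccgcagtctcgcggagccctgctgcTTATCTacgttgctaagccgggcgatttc
ERG, start 3 (chr21:38498505-38498754, minus strand): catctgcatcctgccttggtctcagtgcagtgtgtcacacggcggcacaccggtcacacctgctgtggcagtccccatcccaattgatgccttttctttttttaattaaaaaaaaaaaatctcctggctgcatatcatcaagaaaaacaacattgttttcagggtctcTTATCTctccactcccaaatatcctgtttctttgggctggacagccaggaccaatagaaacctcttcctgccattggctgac
HOXA9 (chr7:27165538-27165787, minus strand): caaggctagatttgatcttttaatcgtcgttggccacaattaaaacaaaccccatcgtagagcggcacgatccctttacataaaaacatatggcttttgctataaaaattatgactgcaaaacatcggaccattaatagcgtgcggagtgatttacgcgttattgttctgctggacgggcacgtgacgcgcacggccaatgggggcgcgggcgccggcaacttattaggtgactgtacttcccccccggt

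Of the 15 windows, 1 held CCGGAAG (MEIS1), 3 held AGATAA (MECOM and a pair of overlapping ERG windows), 2 held TGTGGT (MEIS1 and MECOM) and 1 held TGATNNAT (MECOM). Over all 35114 promoter windows of the table, of the same 250 bases, the shares were 8.52%, 9.17%, 11% and 6.47%. The windows of HOXA7, HOXA9, HOXA10, PBX3 and HLF held none of these letters. The printed HOXA9 window had a GC content of 48.8% with 20 CpG dinucleotides and that of MEIS1 59.6% with 16, against a median of 58% and 11 over all windows.

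Library totals ran from 4125125 to 19368927 counts, and the mutant D30 library with the lowest total is replicate 3. USB1 RNA was between 42 and 87.3 CPM (a gene’s count as a share of its library’s scaled total, the usual depth-corrected unit) in mutant and between 50.1 and 82.1 CPM in WT libraries, and since a frameshift need not alter the amount of RNA, the genotype labels cannot be judged from it. POU5F1, a factor of undifferentiated cells, was at 661 to 705 CPM in WT and 748 to 869 CPM in mutant D0 libraries and at most 5.61 CPM at D16. PTPRC, which encodes CD45, was at most 0.504 CPM at D0 and at least 422 CPM at D16, and CD34 was between 72.7 and 170 CPM at D16. In bulk RNA, fewer cells of a type and less RNA per cell cannot be told apart.

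The 4 HOXA genes were close to silent in every group. HOXA5 reached at most 14 counts in a library, HOXA7 6, HOXA9 28 and HOXA10 18, and they held 0 counts in 6, 11, 3 and 2 of the 18 libraries. HOXA9, which is known for its role in stem cell expansion and leukemia, was at 0, 0.26 and 0.099 CPM in WT and 0.09, 0 and 0 CPM in mutant D0 libraries. At D16 it was at 0.59, 0.88 and 2.06 CPM in WT and 0.49, 0.24 and 0.91 CPM in mutant, and the genotypes overlapped. At D30 the WT libraries had 0.51, 0.37 and 0.65 CPM and the mutant libraries 0.10, 0.43 and 1.35 CPM, again with overlap. HOXA10, its neighbour, followed with 0.47, 0.75 and 1.33 CPM in WT and 0.083, 0.16 and 0.63 CPM in mutant at D16. HOXA5 was at 0.24, 0.13 and 1.03 CPM in WT D16 libraries, so that replicate 3 stood above the others, and at 0 in all WT D30 libraries. HOXA7 was at 0 in all WT D16 libraries and at 0.083, 0.08 and 0.14 CPM in the mutant ones, which are 4 counts in all. With every library kept, HOXA5, HOXA7 and HOXA10 passed the filter on low counts in no fit. HOXA9 passed it at D16 and in the fit over 18 libraries. HOXA10 passed it in most fits over all days with a library left out.

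The other members were expressed, most of them at D16. FLI1 led at D16 on the TPM scale, which corrects for transcript length, with 134 ± 18 TPM in WT and 115 ± 4.94 TPM in mutant (mean ± SD, n = 3 per group). PBX3 (36.3 ± 12.7 TPM) and MEIS1 (29.9 ± 2.43 TPM) came next in WT and overlapped. In mutant, MEIS1 (65.5 ± 6.28 TPM) lay above PBX3 (33.2 ± 8.95 TPM) with no overlap, and MECOM (11.6 ± 2.2 TPM) above ERG (5.64 ± 2.43 TPM). In WT, MECOM (4.43 ± 2.01 TPM), ERG (2.38 ± 1.57 TPM), HLF (2.06 ± 1.14 TPM) and HOXA9 (1.62 ± 0.7 TPM) each overlapped with the next. At D0 only PBX3 stood apart from the rest, at 73.2 ± 4.29 TPM in WT and 68.3 ± 8.68 TPM in mutant, while every other member averaged at most 1.5 TPM. The plot of members by library gives these patterns in CPM.

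**Figure D1:**
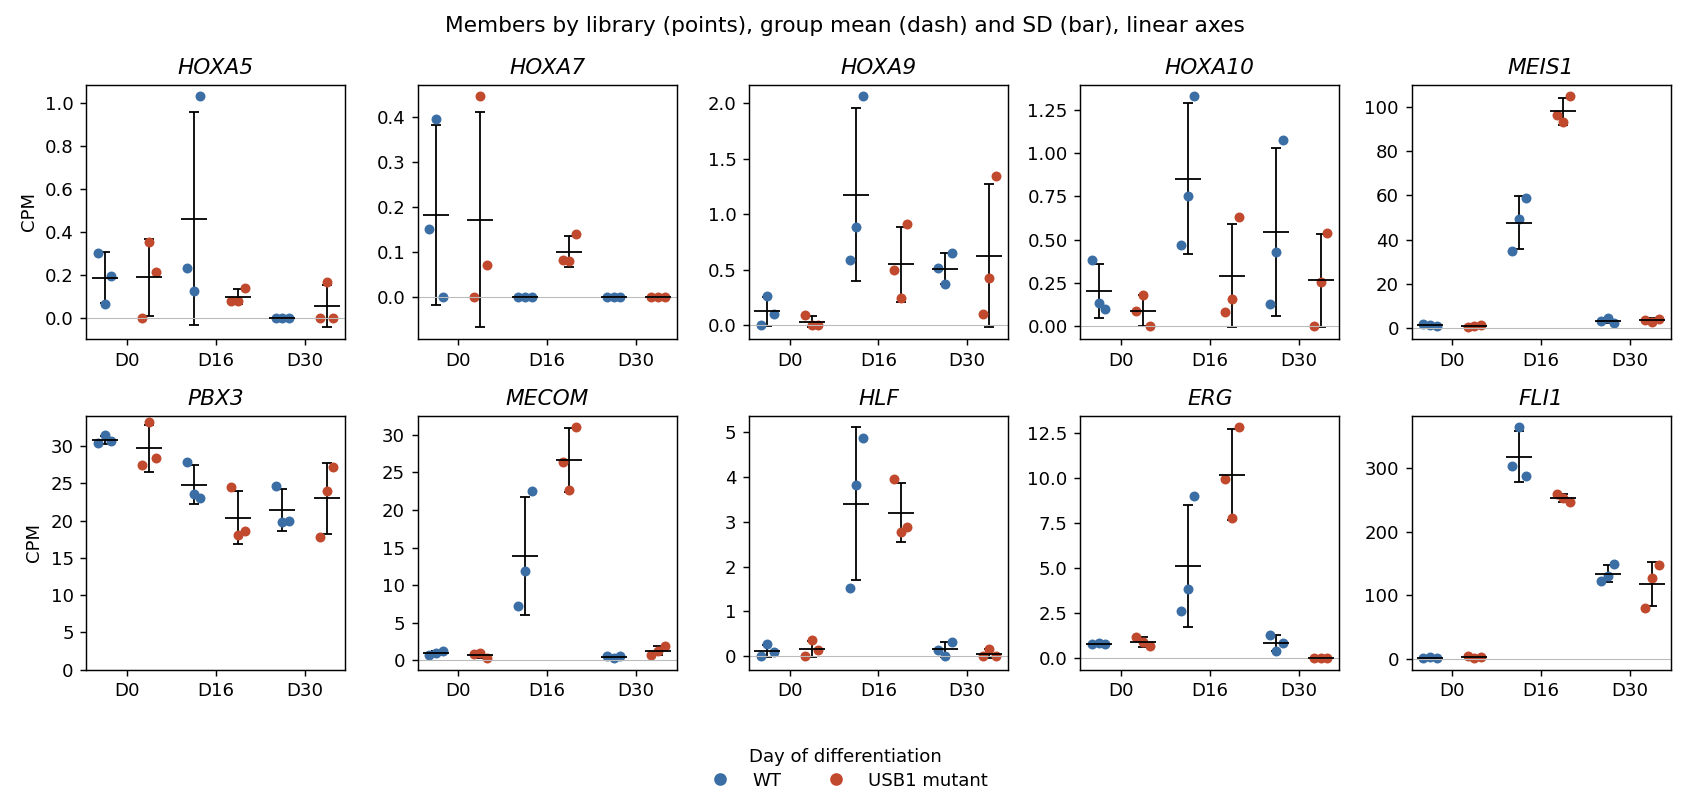
CPM of the 10 members (vertical axis, linear and separate for each gene) by day of differentiation, with a point per library, a dash for the group mean and a bar for the SD (n = 3), WT in blue and USB1 mutant in red. MEIS1 is at 34.8 to 58.7 CPM in WT and 93 to 104.7 CPM in mutant at D16 and the HOXA genes stay at or below 2.06 CPM.

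The HOXA genes were compared with the other HOX clusters. The sum over all 11 HOXA genes was 0.323 to 4.09 TPM in the 18 libraries, and the sums over 9 HOXC and 9 HOXD genes reached 1.42 and 1.19 TPM. In contrast, the 10 HOXB genes summed to 66.4 to 76.8 TPM in WT and 81.9 to 96.5 TPM in mutant at D16, after 0.473 to 3.55 TPM at D0. At D30 the HOXB sum was 14.9 to 16.2 TPM in WT and 54.5 to 73.2 TPM in mutant, with a wide gap between the genotypes. Of 8 HOXB genes tested at D30, 6 were higher in mutant and 0 lower, beside 10.8% of all 14263 genes higher at that day. HOXB5, HOXB6, HOXB7 and HOXB8 were too low in WT D30 libraries to pass the filter on these alone. They passed through the mutant group, where they were high, so their part in this count is a description. HOXB3 (log2 fold change 3.39 ± 0.32, adjusted p = 0.00155), HOXB2 (2.25 ± 0.29, 0.0037) and HOXB4 (2.06 ± 0.30, 0.0055) had the smallest adjusted p in edgeR's quasi-likelihood test. HOXB8, at 0.108 to 0.426 CPM in WT and 2.64 to 6.74 CPM in mutant, had a log2 fold change of 3.56 ± 0.61 as a description. At D16, 0 of 8 HOXB genes were called in the same test, and 0 with the replicate block, where their log2 fold changes ran from 0.041 to 0.53 with a smallest adjusted p of 0.165. Cell type markers moved with the genotype at D30 as well. The erythroid markers summed to 1181 to 1797 CPM in WT and 2270 to 5308 CPM in mutant (5 of 8 higher), and the monocyte and macrophage markers to 5435 to 7314 CPM and 2116 to 3649 CPM (6 of 9 lower). Of 10 granulocyte markers tested, 6 were lower, beside 9.75% of all genes lower. Their part in the HOXB differences was not tested.

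**Figure D2:**
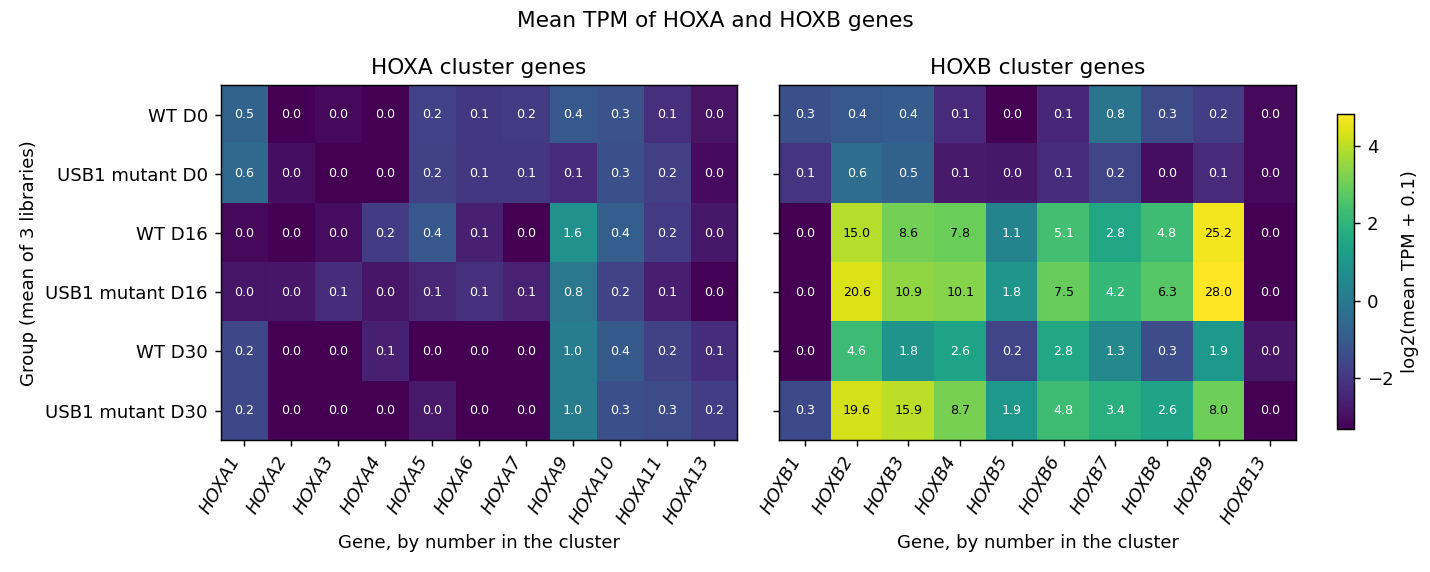
Mean TPM (n = 3 libraries) of the 11 HOXA and 10 HOXB genes (columns) in the 6 groups (rows), printed in each cell and coloured by log2(mean TPM + 0.1). The HOXA panel stays dark in all groups and the HOXB panel is bright at D16 in both genotypes and at D30 in mutant.

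At D0 the question was whether the members differed before differentiation. No difference was called for 5 members tested (MEIS1, PBX3, MECOM, ERG and FLI1), where 2.93% of all 14719 genes were called at an adjusted p under 0.1 (1.07% higher and 1.87% lower). The test was also run with the replicate number as a block, a pairing taken from the data and not from the labels. It called 11.7% of all genes (6.04% higher and 5.63% lower) and again 0 of the 5 members. MEIS1 was at 1.97, 1.45 and 0.9 CPM in WT and 0.36, 1.07 and 1.3 CPM in mutant (log2 fold change of mutant over WT −0.66 ± 0.46 (SE), adjusted p = 0.555, edgeR). FLI1 was at 1.52, 1.98 and 1.59 CPM in WT and 3.98, 1.34 and 2.02 CPM in mutant (0.50 ± 0.40, adjusted p = 0.606). The genotypes overlapped for all 10 members, the 5 tested ones among them, while 20.6% of all genes tested did not overlap. At an unadjusted p under 0.05 the count was also 0, and the smallest of the 5 was 0.184, for MEIS1.

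At D16 MEIS1 and MECOM were higher and FLI1 was lower in mutant progenitors. These 3 of 7 tested members were called, beside 28.5% of all 14528 genes (13.1% higher and 15.3% lower). MEIS1, the HOX cofactor, was at 34.8, 49.5 and 58.7 CPM in WT and 96.4, 93 and 104.7 CPM in mutant libraries. Every mutant value lay above every WT value, and the log2 fold change was 0.98 ± 0.17 (1.97-fold, adjusted p = 0.00275, edgeR). This call held in all 6 fits with a library left out.

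MECOM was at 7.19, 11.8 and 22.55 CPM in WT and 26.3, 22.59 and 31 CPM in mutant (0.87 ± 0.31, 1.83-fold, adjusted p = 0.0703). WT replicate 3 almost reached the lowest mutant library. Without WT replicate 3 the log2 fold change was 1.39 (adjusted p = 0.00116), and the call was lost without each of the other 5 libraries (WT replicates 1 and 2 and mutant replicates 1, 2 and 3), with adjusted p from 0.105 to 0.204. The share of all genes called moved likewise, to 39.3% without WT replicate 3 and to 16.7% to 20.2% without one of the other 5 libraries.

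ERG, the ETS factor of stem cells and endothelium, was at 2.59, 3.83 and 8.99 CPM in WT and 9.98, 7.79 and 12.8 CPM in mutant, with WT replicate 3 inside the mutant range (0.91 ± 0.38, adjusted p = 0.112). It was called without WT replicate 3 (1.56, adjusted p = 0.00291), without a count filter (0.0421), in DESeq2 (0.0667) and in limma-voom (0.0702). FLI1, in contrast, was at 303.7, 365 and 287.7 CPM in WT and 260, 254 and 247.2 CPM in mutant, all WT values being above all mutant values (−0.39 ± 0.13, 1.31-fold lower, adjusted p = 0.0583). The FLI1 call was kept without WT replicate 3 (adjusted p = 0.0172) and lost without any of the other 5 libraries (adjusted p 0.117 to 0.25), with transcript lengths as offsets (−0.33, adjusted p = 0.142), and in the contrast over 18 libraries (−0.36, 0.257).

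HLF did not separate the genotypes at D16, with 1.53, 3.83 and 4.86 CPM in WT and 3.96, 2.78 and 2.88 CPM in mutant (−0.18 ± 0.37, adjusted p = 0.773). PBX3 was at 27.8, 23.6 and 23.1 CPM in WT and 24.5, 18.1 and 18.6 CPM in mutant (−0.35 ± 0.17, adjusted p = 0.174). HOXA9 had a log2 fold change of −1.16 ± 0.58 (adjusted p = 0.185). The labels do not say that replicate numbers pair the samples, but libraries of the same number deviated together at D16. The test was therefore also run with the replicate number as a block. That fit called 6 of 7 members, beside 37.2% of all genes (18.3% higher and 18.9% lower). With the replicate block, ERG (1.01 ± 0.25, adjusted p = 0.00684) joined the higher ones, and PBX3 (−0.36 ± 0.14, adjusted p = 0.0623) and HOXA9 (−1.16 ± 0.49, adjusted p = 0.0898) the lower ones.

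**Figure D3:**
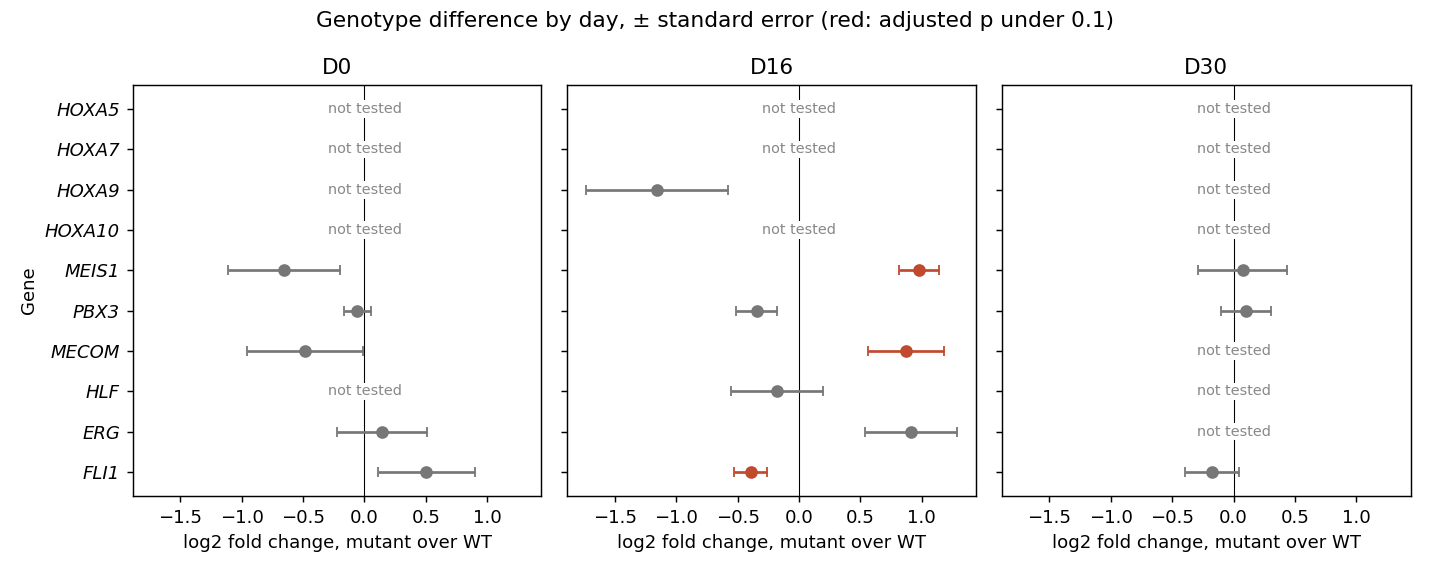
Log2 fold change of USB1 mutant over WT (horizontal axis, bars ± SE, n = 3 libraries per genotype) for each member at D0, D16 and D30, red where the adjusted p was under 0.1. At D16 MEIS1 (0.98) and MECOM (0.87) lie to the right and FLI1 (−0.39) to the left, and no member is red at D0 or D30.

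Markers of other cell types moved with the genotype at D16. The 8 megakaryocyte markers summed to 904.7 to 988.7 CPM in WT and 1405 to 1564 CPM in mutant, with 7 of 8 tested higher. The 12 endothelium markers summed to 347.6 to 464.3 CPM in WT and 475.7 to 522.1 CPM in mutant, with 7 of 11 tested higher, and CDH5, a defining gene of endothelium, was at 3.78 ± 1.15 CPM in WT and 9.07 ± 1.08 CPM in mutant. Of the endothelium markers 1 was at 0 in WT replicate 1, and in the other D16 libraries none was at 0. The 8 erythroid markers summed to 61.6 to 90.5 CPM in WT and 190.5 to 233.3 CPM in mutant. The 11 granulocyte markers summed to 38640 to 53890 CPM in WT and 9096 to 12140 CPM in mutant, with 10 of 11 lower. They include MPO, ELANE, AZU1 and PRTN3. In WT their sum was lower at D30 (3882 to 11610 CPM), so the list does not mark mature cells alone. Over all genes at D16, 13.1% were higher and 15.3% lower. The part of these marker lists in the differences of MEIS1, MECOM and FLI1 was not tested. The sums of the 6 progenitor markers overlapped (1576 to 1789 CPM in WT and 1596 to 1712 CPM in mutant), but 2 of them were higher (ANGPT1 and KIT) and 2 lower (PTPRC and FLT3). The sums of the 12 mesenchymal stroma markers also overlapped (73.5 to 98.7 CPM and 63.7 to 88.4 CPM), with 2 of 9 tested higher (COL6A3 and PDGFRB) and 2 lower (LUM and TWIST1).

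**Figure D4:**
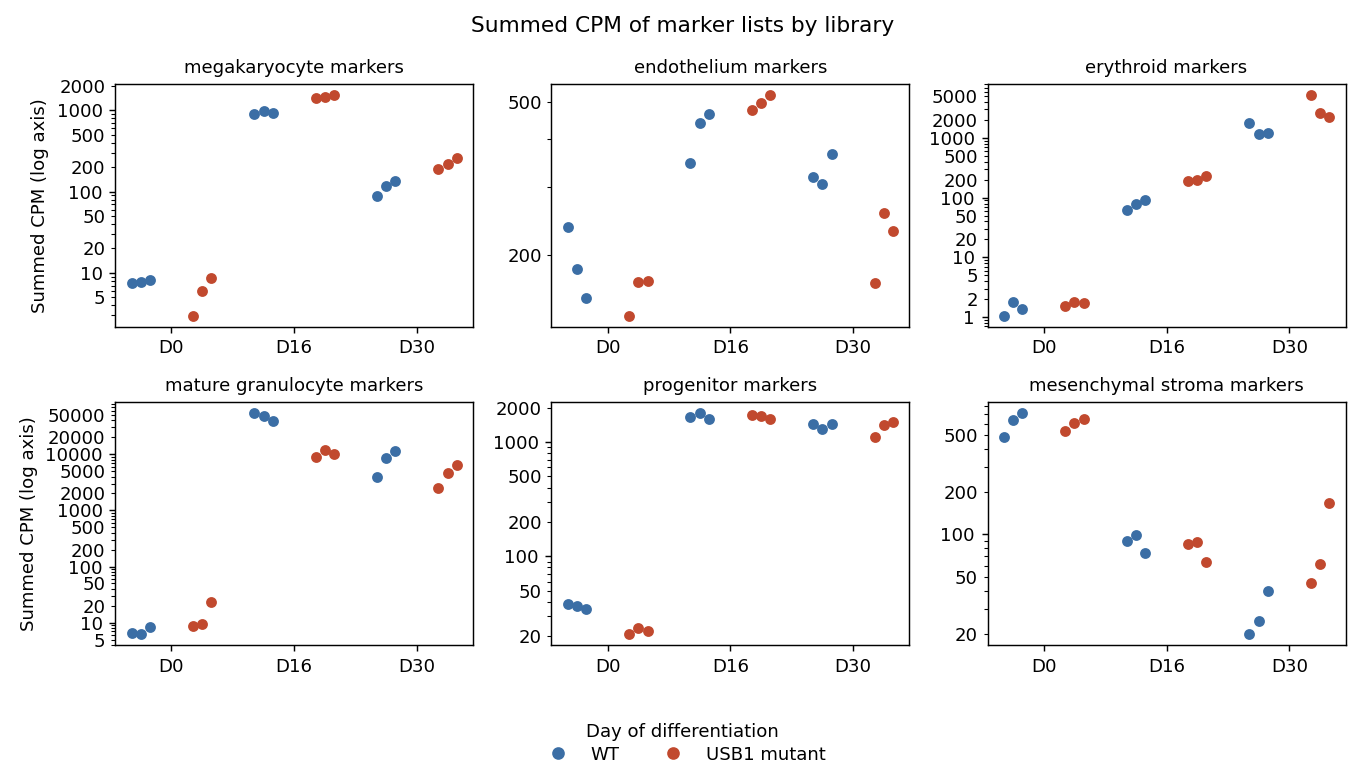
Summed CPM (log axis) of 6 marker lists by day of differentiation, with a point per library, WT in blue and USB1 mutant in red. At D16 megakaryocyte (1405 to 1564 CPM against 904.7 to 988.7 CPM) and endothelium markers are higher in mutant. Granulocyte markers, in the panel titled mature granulocyte markers, are lower in mutant (9096 to 12140 CPM against 38640 to 53890 CPM).

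At D30 MEIS1, PBX3 and FLI1 passed the filter. Of these 3, 0 were called by edgeR, beside 20.6% of all genes (10.8% higher and 9.75% lower), and 0 had an unadjusted p under 0.05. MEIS1 was at 3.18, 4.74 and 2.37 CPM in WT and 3.87, 2.9 and 4.31 CPM in mutant (0.07 ± 0.37, adjusted p = 0.917). FLI1 was at 123.3, 130.9 and 148.8 CPM in WT and 80.2, 127.3 and 147.7 CPM in mutant (−0.17 ± 0.22, adjusted p = 0.644). PBX3 overlapped as well (0.10 ± 0.20, adjusted p = 0.787).

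ERG was at 0 in all 3 mutant D30 libraries and at 1.27, 0.37 and 0.86 CPM in WT, which are 25 counts in all. Against a floor of 3 counts over the mutant group, ERG was at least 5.86-fold lower in mutant, a bound that covers counting error only. It was called in each fit that kept it, without a count filter (adjusted p = 0.0214), in DESeq2 (0.0228) and in the contrast over 18 libraries (0.00528). MECOM went the other way, at 0.51, 0.32 and 0.54 CPM in WT and 0.71, 1.28 and 1.89 CPM in mutant with no overlap. It was called in the contrast over 18 libraries (1.45 ± 0.60, adjusted p = 0.0926) but not without a count filter (adjusted p = 0.232) or in DESeq2 (0.259). ERG and MECOM entered the contrast over 18 libraries through other days, so their calls there are a description. The 3 members tested at D30 all overlapped between genotypes, while 35.7% of all genes tested did not. Of 7 members tested at D16, MEIS1, MECOM and FLI1 did not overlap, beside 39.0% of all genes tested. MECOM and ERG at D30 and HOXA7 at D16 did not overlap either but were not tested. The endothelium markers at D30 summed to 305.7 to 367.1 CPM in WT and 169.5 to 257.1 CPM in mutant, and VWF, which megakaryocytes and endothelium share, was at 16.2 ± 1.78 CPM in WT and 4.53 ± 1.81 CPM in mutant. Of 5 endothelium markers tested at D30, 1 was higher (KDR) and 1 lower (PECAM1), and 4 to 5 of the 12 were at 0 in each library. The megakaryocyte markers summed to 88 to 135.4 CPM in WT and 188.5 to 256.6 CPM in mutant, with 1 of 4 tested higher (ITGA2B) and 1 lower (VWF). The part of either list in the ERG and MECOM differences was not tested.

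Of the 5 members that passed the filter at D0 (MEIS1, PBX3, MECOM, ERG and FLI1), 4 rose from D0 to D16 and PBX3 fell, in each genotype. HOXA9 and HLF passed only through D16, where they were high, so their rise is a description. HOXA10 passed only in fits with a library left out, so its rise in WT is a description too. It was 2.01 without a count filter (adjusted p = 0.048, edgeR) and 1.99 in DESeq2 (adjusted p = 0.107). With a library left out it ran from 1.72 to 2.75 (adjusted p 0.0313 to 0.135, edgeR). In mutant the HOXA10 change was not called in these fits. Over all genes, 76.3% of 16829 were called in WT (37.0% higher and 39.3% lower) and 72.9% in mutant (36.9% higher and 36.0% lower). D0 and D16 libraries did not overlap for any of the 5 members that passed the filter at D0, in either genotype. The shares of all genes tested were 75.0% in WT and 75.3% in mutant. HOXA9 and HLF did not overlap in either genotype, which is a description. HOXA10 did not overlap in WT either but was not tested. FLI1 rose by a log2 fold change of 7.51 ± 0.30 in WT and 6.66 ± 0.29 in mutant. MEIS1 rose by 4.99 ± 0.31 in WT and 6.66 ± 0.33 in mutant, MECOM by 3.84 ± 0.42 and 5.24 ± 0.44, and HLF by 4.62 ± 0.79 and 4.14 ± 0.78. ERG rose by 2.65 ± 0.48 in WT and 3.46 ± 0.47 in mutant, and HOXA9, from near 0, by 3.10 ± 0.84 and 3.85 ± 1.18. PBX3 fell, by 0.34 ± 0.16 in WT (adjusted p = 0.0661, edgeR) and by 0.59 ± 0.16 in mutant (adjusted p = 0.00375). The PBX3 call in WT was lost without a count filter (adjusted p = 0.137) and without WT D0 replicate 2, WT D0 replicate 3, WT D16 replicate 2 or WT D16 replicate 3 (adjusted p 0.114 to 0.185).

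Of the 3 members that passed the filter at D30, MEIS1 and FLI1 fell from D16 to D30 in each genotype and PBX3 was not called, beside 66.7% of all genes called in WT (31.6% higher and 35.1% lower) and 69.8% in mutant (34.7% higher and 35.1% lower). Of the same 3 members, MEIS1 and FLI1 did not overlap between the days in either genotype, and PBX3 overlapped. The shares of all genes tested were 65.0% in WT and 64.2% in mutant. MECOM, HLF and ERG did not overlap in either genotype, which is a description. HOXA5 in WT and HOXA7 in mutant did not overlap either but were not tested. In WT, MEIS1 fell by 3.77 ± 0.28 and FLI1 by 1.29 ± 0.21 on the log2 scale. MECOM, HLF and ERG did not pass at D30 and entered the fit through other days, so their falls are a description (−5.03 ± 0.48, −4.79 ± 0.83 and −2.79 ± 0.49 in WT). In mutant, MEIS1 fell by 4.78 ± 0.29 and FLI1 by 1.11 ± 0.21, with −5.19 ± 0.95 for HLF and −4.49 ± 0.44 for MECOM. ERG went from 402 counts to 0 in mutant, which is at least 86.9-fold lower against the floor of 3 counts, and from 205 to 25 counts in WT, which is 7.76-fold lower. HOXA9 was not called in either genotype. HOXA5 was not tested, and in WT went from 18 counts at D16 to 0 at D30, at least 5.68-fold lower over the pooled counts. The change was called without a count filter (adjusted p = 0.00575, edgeR) and in DESeq2 (0.013). Of the 18 counts, WT D16 replicate 3 held 14 and the other libraries 2 each, so the bound and the calls rest largely on that library.

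**Figure D5:**
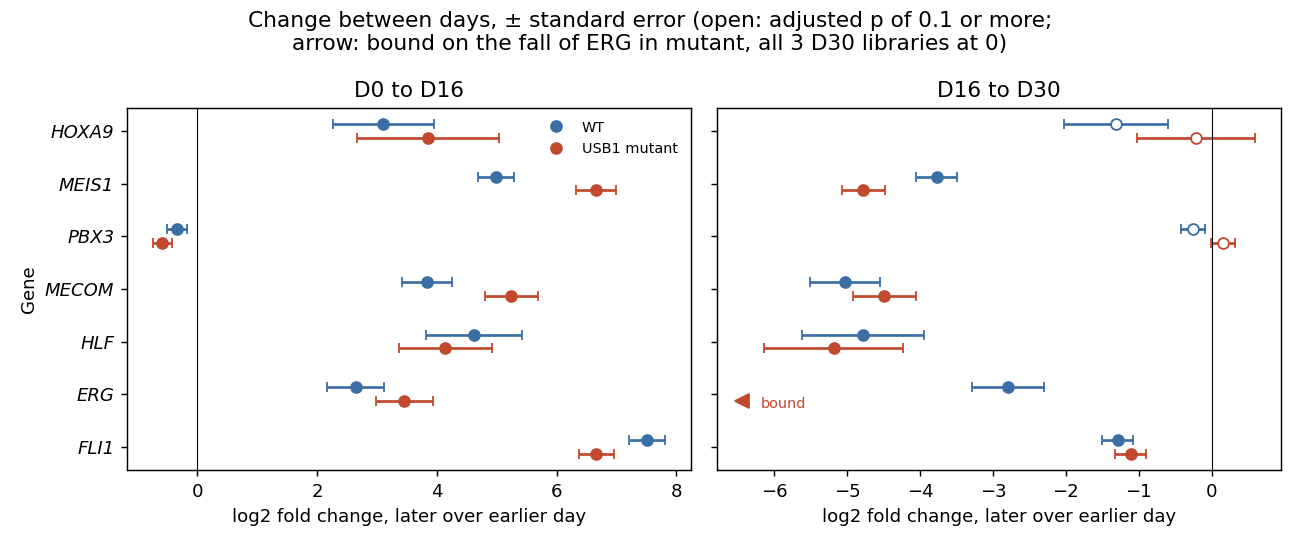
Log2 fold change between days (horizontal axis, later over earlier, bars ± SE, n = 3 libraries per group) for the 7 members tested, WT in blue and USB1 mutant in red, filled where the adjusted p was under 0.1. The arrow marks the bound for ERG in mutant (at least 86.9-fold lower), and 6 members lie to the right from D0 to D16 while PBX3 lies to the left.

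Whether the change between days differed between genotypes was tested as an interaction. From D0 to D16, MEIS1 rose more in mutant (1.67 ± 0.47 on the log2 scale, adjusted p = 0.0554, edgeR), as 1 of 7 members called, beside 7.61% of all genes (3.86% higher and 3.75% lower). This call was lost without WT D0 replicate 1, WT D0 replicate 2, mutant D0 replicate 1 or WT D16 replicate 1 (adjusted p 0.11 to 0.184) and with transcript lengths as offsets (0.336). MECOM had 1.40 ± 0.62 (adjusted p = 0.228), and 1.94 (0.0378) without WT D16 replicate 3. From D16 to D30, MEIS1 was called among the 3 members that passed the filter at D30, beside 20.5% of all genes (10.3% higher and 10.2% lower). It fell more in mutant, and PBX3 and FLI1 were not called. MEIS1 had −1.01 ± 0.39 (adjusted p = 0.0987), a call kept in 6 of 18 fits with a library left out (WT D0 replicates 1 and 3, mutant D0 replicate 1, WT D16 replicate 3, WT D30 replicate 3 and mutant D30 replicate 3) and lost without each of the other 12 libraries (adjusted p 0.102 to 0.364). ERG also fell more in mutant. It did not pass the filter at D30 and entered the fit through other days, so its interaction is a description. It was called with every library (adjusted p = 0.00424) and in all 18 of these fits. The mutant D30 group is at 0 in each of them, so they are no separate support. The fitted size rests on a group at 0 and is no bound.

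Other genes of these families were counted from lists. Among other TALE homeobox genes at D16, TGIF2 was higher (0.75 ± 0.17, adjusted p = 0.0125) and TGIF1 lower (−0.63 ± 0.19, 0.0446) in mutant (edgeR). At D30 MEIS2 was higher (2.13 ± 0.30, adjusted p = 0.00459), at which day MEIS1 and PBX3 were not called. Of 9 tested other ETS factors of blood, 1 was higher (ELK3, 0.96 ± 0.25, adjusted p = 0.0223) and 3 lower at D16, namely ETS1 (−1.45 ± 0.15, 0.000255), SPI1, which encodes the myeloid factor PU.1 (−0.58 ± 0.13, 0.00983), and ELF4 (−0.37 ± 0.13, 0.0638). Among the paralogues of MECOM and HLF, NFIL3 was lower at D16 (−0.89 ± 0.15, adjusted p = 0.00229) and DBP higher at D30 (1.62 ± 0.32, 0.0138), as 1 of 3 tested at each day. Over all genes, 28.5% were called at D16 (13.1% higher and 15.3% lower) and 20.6% at D30 (10.8% higher and 9.75% lower).

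Of 22 other stem cell genes, 20 were tested at D16, with 6 higher and 3 lower in mutant, beside 13.1% of all genes higher and 15.3% lower. TAL1 (0.85 ± 0.13, adjusted p = 0.0015) and KIT, the stem cell factor receptor (1.62 ± 0.25, 0.00183), were higher, and MYB (−0.81 ± 0.13, 0.00188) and GFI1 (−0.88 ± 0.16, 0.00344) lower. At D30, 9 of 17 tested were higher and 0 lower, beside 10.8% of all genes higher, among them GATA2 (2.05 ± 0.21, adjusted p = 0.00195), LYL1 (1.51 ± 0.18, 0.003), KIT (4.11 ± 0.53, 0.00386) and TAL1 (1.52 ± 0.29, 0.0125). The part of the erythroid and monocyte markers, which moved at the same day, was not tested. At D0, KIT (−1.15 ± 0.17, adjusted p = 0.0125) and MSI2 (−0.57 ± 0.11, 0.0459) were lower and the other 11 of 13 tested were not called, beside 1.87% of all genes lower. Of 19 regulators of HOX chromatin, all tested, 4 were higher at D16, with CBX2 first (1.20 ± 0.25, adjusted p = 0.00844), and 5 at D30, with KDM6A (0.68 ± 0.15, 0.0229) and KMT2A (0.59 ± 0.14, 0.0304) first, beside 13.1% and 10.8% of all genes higher at these days (28.5% and 20.6% called in either direction). KDM6B was lower at D0 (−1.39 ± 0.25, adjusted p = 0.0303).

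The genes whose pattern over the 18 libraries was most like that of a member were found by the root mean square difference of centred log2 CPM, among 15178 genes. For MEIS1 these were CXCR2P1 (0.571), EFHC2 (0.644) and GP1BA (0.728), a platelet glycoprotein gene. For MECOM they were CD79B (0.637), IGFBP7 (0.733) and TMIGD2 (0.771), and for ERG GPA33 (0.846), TMIGD2 (0.857) and BCL6B (0.872). For FLI1 they were IL18RAP (0.447), LCP1 (0.479) and TMEM176A (0.482), for HLF CYP2F2P (0.604), GSTM1 (0.607) and IL13 (0.635), and for PBX3 DLG1 (0.158), ATXN7L1 (0.168) and ALG13 (0.173). The SD of the member's own log2 CPM was 2.57 for MEIS1, 2.19 for MECOM, 1.98 for ERG, 3.2 for FLI1, 1.86 for HLF and 0.286 for PBX3. These values are a description of 18 libraries that share days and genotypes. The nearest genes of HOXA9 were NFIL3 (0.534), OPN3 (0.54) and FOSL2 (0.548), beside its own SD of 1.11. HOXA9 held 103 counts over all 18 libraries, so its pattern rests on few counts too. The still fewer counts of HOXA5, HOXA7 and HOXA10 leave no pattern to compare.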

How the data were processed

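RNA was measured in 18 libraries made with a directional kit. According to the submitters' processing notes the tools were Trimmomatic 0.36 for trimming and Salmon 0.13.1 for quantification, with the Ensembl GRCh38 cDNA set as target in the study's methods. Whether Salmon was run with strand is not given in the sources used here. For each gene and library the authors deposited an expected count and its TPM. They also deposited an effective length in bases, which is no coverage or signal of reads and served only as an offset. The expected counts were made whole by rounding, and TPM was used for levels between genes. Gene names and coordinates came from GENCODE 44, which matched 35051 of 35168 identifiers, and the other 117 held 0.238% of counts.

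Genotypes were compared within each day, and days and interactions over 18 libraries with 6 group means, by edgeR 4.0.16 in R 4.3.3 (filterByExpr, TMM scaling, quasi-likelihood test). Calls used an adjusted p (Benjamini-Hochberg, over all genes tested) under 0.1. The SE of an edgeR log2 fold change is approximate, its absolute value divided by the square root of the test's F. CPM uses TMM-scaled library sizes. A gene at 0 in a whole group was set against a floor of 3 counts. The code was tested on simulated data. Libraries are not tied to separate cultures in the sources used here, and the p-values cover only the spread among them, which may be technical.

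The members and gene lists were chosen with earlier results of these data known. The genes named were the 10 members and, per list, up to 4 called genes with the smallest adjusted p, except for results that are not reported here. Alternatives were RLE scaling, no count filter, 5 CPM in 3 libraries, DESeq2 1.42.0, limma-voom (limma 3.58.1), an adjusted p under 0.05, lengths as offsets, a replicate block, genotype over 18 libraries and each library left out. Libraries of the same replicate number deviated together from their group means at D0 (correlations over genes 0.252, 0.146 and 0.192) and D16 (0.119, 0.2 and 0.326). At D30 the correlations were 0.146, −0.0422 and 0.253, so not all were positive. From these values the number was taken as a pairing at D0 and D16, which the labels do not state.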

Additional observations from a re-analysis of the deposited data

Results flagged for a closer look

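For 3 results the change between days differed between genotypes in the interaction test of edgeR. MEIS1 rose more from D0 to D16 in mutant, by 1.67 ± 0.47 on the log2 scale (adjusted p = 0.0554). MEIS1 fell more from D16 to D30 in mutant, with an interaction of −1.008 ± 0.39 (adjusted p = 0.0987). ERG fell more from D16 to D30 in mutant, with a fitted interaction of −7.108 ± 1.43 (adjusted p = 0.00424), which depends on the prior count because ERG was at 0 in all 3 mutant D30 libraries. ERG did not pass the filter at D30, so this interaction is a description. The bound for the fall of ERG in mutant was 86.9-fold, and its fall in WT was 7.76-fold.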

How the results depend on the processing

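The call of MEIS1 at D16 held in all 9 other settings and all 6 fits with a library left out. The count of members called at D16 was 3, and 1 at an adjusted p under 0.05, 6 with the replicate block (where all genes called went from 4135 to 5407), 4 with no count filter, in DESeq2 and in limma-voom, 2 with lengths as offsets and in the contrast over 18 libraries, and 1 to 4 with a library left out. Over all genes, 16.7% to 39.3% were called with a D16 library left out. At D0 the count of members called stayed 0 with the replicate block, where all genes called went from 432 to 1718. At D30 it was 0, and 1 with no count filter, 1 in DESeq2 and 2 with the genotype contrast over 18 libraries, settings that tested ERG and MECOM. For the interaction from D0 to D16 it was 1, and 0 at an adjusted p under 0.05, 0 with transcript lengths as offsets and 0 to 2 with a library left out. For D16 to D30 it was 2, and 1 at an adjusted p under 0.05, with RLE scaling, with the filter of 5 CPM, in limma-voom, with transcript lengths as offsets and with the replicate block, and 1 to 2 with a library left out. ERG, whose interaction is a description, is in each of these counts. Among members, the replicate block changed no other call than those of ERG, PBX3 and HOXA9 at D16 and of MEIS1 from D16 to D30.

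With transcript lengths as offsets, PBX3 was called higher from D16 to D30 in mutant (0.53, adjusted p = 0.0803, edgeR), unlike in the main fit. No called result changed direction. Uncalled results that did were, with transcript lengths as offsets, MECOM (0.27), ERG (−0.18) and PBX3 (0.014) at D0, PBX3 from D16 to D30 in WT (0.14), and HOXA9 from D16 to D30 in mutant (0.093, and 0.0049 in DESeq2). In limma-voom they were MEIS1 at D30 (−0.0046), the HOXA9 interaction from D0 to D16 (−0.10) and the HLF interaction from D16 to D30 (0.21). With a library left out, ranges that crossed 0 were at D0 FLI1 −0.017 to 0.78 and ERG −0.084 to 0.35, at D16 HLF −0.48 to 0.13, and at D30 MEIS1 −0.12 to 0.40, FLI1 −0.36 to 0.040 and PBX3 −0.023 to 0.26. From D16 to D30 in mutant HOXA9 ran from −1.005 to 0.38. Interactions that crossed 0 were HOXA9 (−0.61 to 2.63) and HLF (−1.83 to 0.50) from D0 to D16, and HLF (−3.49 to 0.97) and FLI1 (−0.011 to 0.39) from D16 to D30. The cause was not tested. Depth limits the HOXA genes, which held at most 28 counts in a library.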

Other observations

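The effective transcript length of FLI1 at D16 was 2651 to 2672 bases in WT and 2473 to 2597 bases in mutant libraries, and that of MECOM 2845 to 3689 and 2428 to 2910 bases. In MECOM these ranges overlapped and in FLI1 they did not. No test was run on lengths.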
